A study of Mus musculus with 12 samples.

Results

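The 36 genes described here carry glucose into the cell, break it down to pyruvate and lactate, move lactate across the membrane, admit pyruvate to the mitochondrion, and feed the pentose phosphate and glycogen branches. They were chosen by gene symbol, and all 36 were found among the 25700 genes of the deposited count table through their Ensembl identifiers in the GENCODE M21 annotation of the mouse genome (GRCm38). Expression was measured by bulk RNA sequencing, with the Smart-Seq2 protocol, of Schwann cells taken by flow sorting out of the sciatic nerve at postnatal day 5. The mice carried a Cre recombinase transgene that acts in the Schwann cell lineage, together with a Cre-dependent eYFP reporter (ReYFP) and a ubiquitous red reporter (βAct-DsRed), on the C57BL/6J background. Both sexes were included, but the labels do not say which library came from which sex. Cells positive for eYFP were collected through 3 gates: all of them (allSC), those with high side scatter, a measure of granularity (mSC), and those with low side scatter (nmSC). The high gate was drawn to enrich myelinating and the low gate to enrich not-myelinating Schwann cells, so each gate is an enriched mixture and not a pure cell type. Each gate had 4 libraries, and libraries with the same number came from the same mouse.

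Glycolysis converts glucose to pyruvate through a chain of cytosolic enzymes. Lactate dehydrogenase then interconverts pyruvate and lactate, while the pyruvate dehydrogenase complex commits pyruvate to oxidation in the mitochondrion and is switched off by the pyruvate dehydrogenase kinases. The pentose phosphate branch supplies NADPH, which lipid synthesis uses, and Schwann cells are known for handing lactate to axons through monocarboxylate transporters.

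Library totals ran from 8180927 to 16918122 counts, and 3 counts corresponded to 0.198 to 0.375 CPM (counts per 1000000 counts of the library, with library sizes corrected by the TMM method) in the 12 libraries. The gates carried their labels' markers. Of the myelinating markers, Pmp22 lay at 72553 to 92055 CPM in mSC and 5849 to 7537 CPM in nmSC, and Prx at 3618 to 6409 CPM and 1535 to 2052 CPM. The markers of not-myelinating or immature cells (Ngfr, Ncam1 and L1cam) ran the other way, at 71.9 to 127 CPM in mSC and 818 to 1138 CPM in nmSC, as did the cycling markers Mki67 and Top2a at 35.5 to 57.9 and 474 to 609 CPM. Among cells that the sort should have left behind, fibroblast, immune, red blood cell, adipocyte and neuron marker sums each stayed under 45 CPM in all 12 libraries, and pericyte and smooth muscle markers summed to 66.9 to 178 CPM in mSC and 51.4 to 89.1 CPM in nmSC. Nearly all of the latter sum was Pdgfrb, at means of 129 and 60.8 CPM. Rgs5 had means of 1.77 CPM in mSC and 0.793 CPM in nmSC (edgeR adjusted p = 0.0962), and Acta2 and Des had means under 2 CPM in both gates. Myh11 was lower in mSC, at 2.13 against 4.48 CPM. The 50 most abundant genes of each library took 26.9% to 31.6% of the counts in mSC and 17.9% to 18.9% in nmSC, so that the scaling of the libraries bears on each direction given below. One library stood apart. In mSC replicate 4 many members with short transcripts were high and many with long transcripts low. Replicate 1, set against a mean that included replicate 4, leaned the opposite way. The values of replicate 4 are described beside the results that rest on it.

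Of the 36 genes, 24 were higher and 4 lower in mSC than in nmSC, and 8 did not pass the test (edgeR quasi-likelihood test, Benjamini-Hochberg adjusted p under 0.05 over the 18597 genes tested). All 36 passed the filter on low counts. Among all genes tested, 40.5% were called, 20.4% higher and 20.2% lower. The median log2 fold change (mSC minus nmSC) was 0.59 over the 36 members and -0.16 over all genes tested, and 30 members lay above the median of all genes. The genes that were higher included most of the abundant enzymes of the chain, from 4.64 to 731 CPM on average over the mSC and nmSC libraries, whereas the 4 lower genes, Pfkfb3, Pdk4, Slc2a4 and Slc16a7, were found at 4.25 to 12.9 CPM. By step, 8 of 11 genes of upper glycolysis were higher, 5 of 6 of lower glycolysis, 3 of 5 lactate genes, 3 of 4 of pyruvate entry, 4 of 4 of the pentose phosphate branch, 1 of 4 glucose transporters and 0 of 2 glycogen genes. In 22 of the 36 genes the mSC and nmSC libraries did not overlap, 19 higher and 3 lower in mSC, where this held for 34.2% of all genes tested, 16.8% higher and 17.4% lower. Scaled by library size alone, 8 members were higher and 8 lower, against 7.79% and 55.9% of all genes, and the median of all genes fell to -0.73. The distance of a member from that median moved by at most 0.030 (log2) over 4 scalings of the libraries. A change of scaling shifts all genes by nearly the same amount, so this distance could hardly move. It does not show which scaling or direction is right. In bulk libraries, fewer cells of one type and less RNA per cell cannot be told apart.

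**Figure D1:**
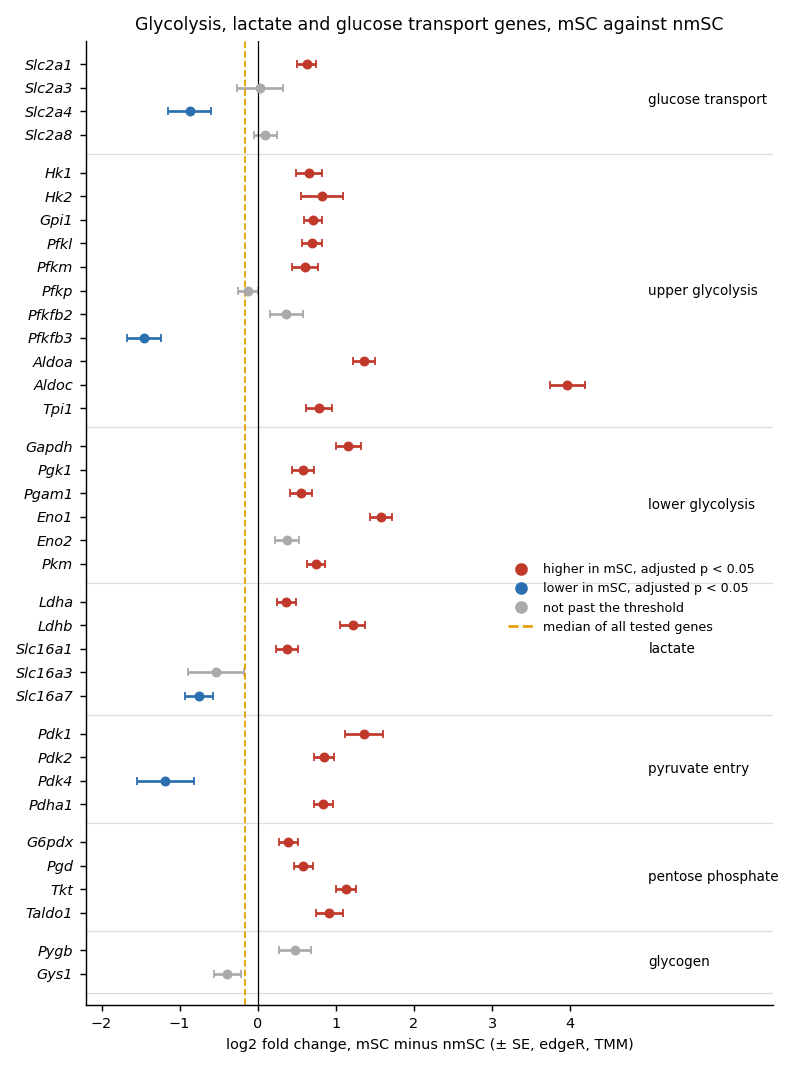
Log2 fold change of each of the 36 genes, mSC minus nmSC (x axis, edgeR with TMM scaling, bars ± SE), in pathway order (y axis). Red points are higher and blue points lower in mSC at an adjusted p under 0.05, grey points did not pass, and the dashed line is the median of all genes tested at -0.16. Aldoc stands farthest to the right at 3.96 and Pfkfb3 farthest to the left at -1.46. With scaling by library size alone the whole plot would shift left, with the median at -0.73, and 9 genes that lie right of 0 here would fall left of it.

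Summed over the 36 genes, expression was 7940 ± 1188 CPM in mSC, 5625 ± 131 CPM in allSC and 4149 ± 462 CPM in nmSC (mean ± SD, n = 4 each). The mSC libraries held 7057, 7532, 7477 and 9693 CPM and the nmSC libraries 3669, 4013, 4774 and 4141 CPM in replicates 1 to 4. The sums thus did not overlap, and the ratio of the means was 1.91. By step, the ratio of summed CPM was 2.21 for the 6 genes of lower glycolysis, 2.00 for the 11 of upper glycolysis, 1.94 for the 4 of the pentose phosphate branch, 1.77 for the 4 of pyruvate entry, 1.70 for the 5 lactate genes, 1.23 for the 4 glucose transporters and 1.22 for the 2 glycogen genes. The mSC and nmSC sums overlapped for glucose transport (86.7 to 107 against 73.7 to 91.4 CPM) and glycogen (63.3 to 132 against 69.1 to 116 CPM), where mSC replicate 4 lay under every nmSC library, and for no other step. Without TMM scaling, the genes together took 0.614% to 0.720% of all counts in the mSC libraries and 0.466% to 0.551% in the nmSC libraries. This gap is smaller than that of the scaled sums, so the ratios above depend on the scaling.

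Sequences just upstream of the transcription start are shown for the 2 glycolytic genes with the largest rise in mSC, Aldoc and Eno1, and for the 2 members with the largest fall, Pfkfb3 and Pdk4. Each run is 250 bases long, reads 5′ to 3′ on the gene's strand and ends at the base before the RefSeq start (GRCm38.p6). That start lies 105 bases from the GENCODE gene start for Aldoc, 13 for Eno1, 148 for Pfkfb3 and 31 for Pdk4. For Aldoc, Pfkfb3 and Pdk4 it lies inside the GENCODE gene, and so does the last part of the run. The marked Aldoc GC box falls in that part, as do the Pfkfb3 ACGTG and the Pfkfb3 GC box that reads CCGCCC. Capitals mark matches to ACGTG, the core of the hypoxia response element, or to GGGCGG, the GC box, on either strand. The runs lie at chr11:78322823-78323072 (plus strand) for Aldoc, chr4:150236458-150236707 (plus) for Eno1, chr2:11553930-11554179 (minus) for Pfkfb3 and chr6:5496279-5496528 (minus) for Pdk4.
Aldoc: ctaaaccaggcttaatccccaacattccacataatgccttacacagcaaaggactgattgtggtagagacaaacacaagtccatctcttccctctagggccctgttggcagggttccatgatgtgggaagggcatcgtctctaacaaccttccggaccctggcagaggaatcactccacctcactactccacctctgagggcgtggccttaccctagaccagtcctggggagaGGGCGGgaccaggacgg
Eno1: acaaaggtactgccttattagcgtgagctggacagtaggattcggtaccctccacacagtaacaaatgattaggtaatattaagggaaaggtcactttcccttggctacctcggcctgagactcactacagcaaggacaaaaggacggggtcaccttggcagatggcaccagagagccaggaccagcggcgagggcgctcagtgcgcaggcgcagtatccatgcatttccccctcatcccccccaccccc
Pfkfb3: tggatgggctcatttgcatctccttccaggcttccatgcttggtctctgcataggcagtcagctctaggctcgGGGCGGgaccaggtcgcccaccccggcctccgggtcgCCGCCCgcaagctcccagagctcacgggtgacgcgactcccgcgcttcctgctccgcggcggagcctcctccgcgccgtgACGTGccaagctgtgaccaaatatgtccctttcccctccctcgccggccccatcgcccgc
Pdk4: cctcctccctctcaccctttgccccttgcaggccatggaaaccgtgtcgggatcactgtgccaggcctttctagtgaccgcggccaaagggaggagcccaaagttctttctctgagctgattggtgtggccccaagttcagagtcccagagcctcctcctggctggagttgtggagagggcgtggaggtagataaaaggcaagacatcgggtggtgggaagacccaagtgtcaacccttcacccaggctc
The Aldoc run held 1 GC box and the Pfkfb3 run 1 ACGTG and 2 GC boxes, while the runs of Eno1 and Pdk4 held neither motif. RefSeq promoters, from 250 bases before to 50 bases after a start, were matched for 33 of the 36 genes. ACGTG was found on either strand in 44% of their 50 promoters, at 18 genes, and in 19.6% of all 32851 promoters of the same length. CACGTG, the E-box, which contains ACGTG, was found in 12% and 7.15%, and GGGCGG in 52% and 35.7%. Genes on both sides of the comparison held ACGTG, among them Aldoa, Gapdh and Ldha, which were higher in mSC, and Pfkfb3, which was lower.

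Glucose enters through facilitative transporters. Slc2a1 encodes GLUT1, the transporter of most dividing cells and of barrier tissues (GRCm38, chromosome 4, 119108711 to 119137983, plus strand). It was found at 56.2, 64.7, 60.2 and 46.6 CPM in mSC replicates 1 to 4, at 50.3, 49.5, 52.0 and 48.2 CPM in allSC and at 33.7, 39.9, 38.1 and 36.2 CPM in nmSC. Every mSC library lay above every nmSC library, by a log2 fold change of 0.62 ± 0.13 (SE, edgeR adjusted p = 0.00062). Slc2a1 also marks perineurial cells, and the other perineurial markers (Itgb4, Cldn1, Tjp1, Lypd2 and Msln) summed to 138 to 252 CPM in mSC and 223 to 353 CPM in nmSC. The lower sum was mostly Itgb4, at means of 127 and 206 CPM, with Cldn1 at 10.3 and 24.5 CPM, while Tjp1 was higher in mSC at 77.9 against 54.3 CPM and Lypd2 was at or near 0 in both gates. Endothelial cells of the blood-nerve barrier carry GLUT1 too, and their markers summed to 20.4 to 29.6 CPM in mSC and 8.18 to 13.4 CPM in nmSC. In mSC nearly all of that sum was Kdr, at means of 20.3 CPM in mSC and 5.90 CPM in nmSC. Pecam1 and Tek were lower in mSC, at 1.25 against 2.45 CPM and 0.920 against 1.98 CPM. Cdh5, at 0.428 against 1.03 CPM, did not pass (edgeR adjusted p = 0.0784). Cldn5, at 0.909 against 0.358 CPM, was too low to be tested. The part of either cell type in the Slc2a1 difference was not tested.

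Slc2a4, the insulin-regulated transporter GLUT4 of muscle and fat, was lower in mSC. Its mSC libraries read 3.26, 3.91, 5.98 and 3.37 CPM and its nmSC libraries 8.65, 6.05, 9.12 and 6.66 CPM, which separated the gates by a narrow margin, while allSC at 3.93, 4.02, 6.78 and 8.66 CPM spanned both. This amounted to a log2 fold change of -0.87 ± 0.28 (SE, edgeR adjusted p = 0.0172). Without nmSC replicate 3 the call was lost (log2 fold change -0.76, edgeR adjusted p = 0.0532). Skeletal muscle markers were lower in mSC as well, with a sum over Ckm, Acta1, Tnnt3, Myh4 and Myh8 of 2.33 to 4.99 CPM against 7.26 to 11.7 CPM in nmSC, and their part in the Slc2a4 difference was not tested. Slc2a8, an intracellular transporter, was at 35.2 ± 1.28 CPM in mSC and 32.9 ± 6.69 CPM in nmSC, and Slc2a3, the neuronal transporter GLUT3, at 3.03 ± 1.19 and 3.01 ± 0.418 CPM (mean ± SD, n = 4). Neither passed the test (edgeR adjusted p = 0.628 and 0.945), and Slc2a3 changed sign without mSC replicate 1 (-0.0014), mSC replicate 3 (-0.23) or nmSC replicate 2 (-0.062). Per length, Slc2a3 lay at 0.418 RPKM in mSC (CPM divided by the exon length in kilobases), under the 95th percentile of 1453 olfactory and vomeronasal receptor genes in the same gate, 0.514 RPKM, a level that genes not used by these cells also reach.

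Hexokinases trap glucose by phosphorylation. Hk1, the housekeeping form, was at 40.6, 44.2, 46.5 and 26.2 CPM in mSC and 26.2, 20.4, 30.5 and 23.2 CPM in nmSC, so that mSC replicate 4 fell among the nmSC libraries while the other mSC libraries stood above them. The fit gave a log2 fold change of 0.65 ± 0.17 (SE, edgeR adjusted p = 0.00492). Hk2, the inducible form of muscle and growing cells, was far lower in both gates. It was found at 7.47, 5.39, 7.07 and 3.62 CPM in mSC and 4.13, 3.83, 2.47 and 3.10 CPM in nmSC, for a log2 fold change of 0.82 ± 0.26 (edgeR adjusted p = 0.0187). The gates overlapped, and the Hk2 call was lost without mSC replicate 1 (0.70, edgeR adjusted p = 0.05), without mSC replicate 3 (0.74, edgeR adjusted p = 0.0547) or without nmSC replicate 3 (0.71, edgeR adjusted p = 0.0532). In nmSC, Hk2 at 0.567 RPKM lay under the 95th percentile of the receptor genes, 0.741 RPKM. Gpi1, the isomerase that follows, was at 246 ± 11.7 CPM in mSC and 150 ± 19.8 CPM in nmSC (mean ± SD, n = 4), a log2 fold change of 0.71 ± 0.12 (edgeR adjusted p = 6.23e-05) with no overlap of libraries.

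Phosphofructokinase is the committed step, and its 3 subunits behaved unequally. Pfkm, the muscle subunit, was the most abundant per length at 25.3 RPKM in mSC, followed by Pfkl, the liver subunit, at 8.50 RPKM and Pfkp, the platelet subunit, at 1.91 RPKM. Pfkl and Pfkm were higher in mSC, with log2 fold changes of 0.69 ± 0.13 (edgeR adjusted p = 0.000314) and 0.60 ± 0.17 (edgeR adjusted p = 0.00736). The libraries did not overlap for Pfkl. Pfkm had 101, 83.5, 90.1 and 63.2 CPM in mSC and 42.5, 50.7, 69.1 and 60.1 CPM in nmSC. Its mSC replicate 4 thus fell among the nmSC libraries. Pfkp had 28.1, 26.4, 24.8 and 23.3 CPM in mSC and 24.4, 28.5, 31.1 and 27.8 CPM in nmSC, and its log2 fold change of -0.12 ± 0.13 (edgeR adjusted p = 0.458) did not pass. It passed as lower in mSC with library size alone (-0.68, edgeR adjusted p = 0.000382) and without the 50 top genes in the library sizes (-0.48, edgeR adjusted p = 0.00524). The share of Pfkp in the summed per-length level of the 3 subunits was 5.42% ± 0.559 in mSC and 8.78% ± 0.743 in nmSC (SD, n = 4 each), and no library overlapped (two-sided exact permutation test, p = 0.0286, adjusted p = 0.0476 over 10 shares). For 4 against 4 libraries, 0.0286 is the smallest p this test can give. The adjusted p of 0.0476 rests on several of the 10 shares sitting at that smallest p. The test also treats the libraries as independent, although same-numbered ones came from the same mouse. An exact permutation test that kept this pairing could not reach p under 0.05 with 4 mice.

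Pfkfb2 and Pfkfb3 encode bifunctional enzymes that make fructose 2,6-bisphosphate, the activator of phosphofructokinase. Pfkfb3, the form of dividing and inflamed cells (chromosome 2, 11471433 to 11554077, minus strand), was found at 6.25, 6.70, 4.97 and 3.00 CPM in mSC, 13.3, 11.4, 14 and 10.6 CPM in allSC and 11.3, 17.8, 16.2 and 13.3 CPM in nmSC. All mSC libraries lay under all others, and the allSC and nmSC libraries overlapped. Expression was 2.75-fold lower in mSC than in nmSC, at a log2 fold change of -1.46 ± 0.22 (edgeR adjusted p = 2.41e-05), the largest fall of the 36 genes. Its distance from the median of all genes ran from -1.30 to -1.28 over 4 scalings, a range that is narrow by construction. With library size alone its own log2 fold change was -2.01. Pfkfb2, the heart form, had 36.6, 31.8, 28.8 and 15.6 CPM in mSC and 18.7, 21.3, 18.8 and 29.3 CPM in nmSC, with mSC replicate 4 the lowest library of all. Its log2 fold change of 0.36 ± 0.21 (edgeR adjusted p = 0.172) did not pass, but without mSC replicate 4 it was 0.56 and passed (edgeR adjusted p = 0.00832). Pfkfb3 made up 15.2% ± 1.28 of the per-length level of the pair in mSC, 32.9% ± 5.22 in allSC and 39.1% ± 7.05 in nmSC (SD, n = 4 each). The difference between mSC and nmSC passed the exact permutation test, which ignores the pairing by mouse (p = 0.0286, adjusted p = 0.0476). Of the 100-base windows of the longest Pfkfb2 transcript, 24.9% were also found in another annotated gene, so its level and this share are uncertain.

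The aldolases gave the widest gap of the 36 genes. Aldoc, the brain aldolase (chromosome 11, 78322968 to 78327781, plus strand), was at 27.5, 26.7, 27.0 and 33.7 CPM in mSC, at 11.7, 15.1, 13.2 and 9.57 CPM in allSC and at 1.54, 2.38, 2.32 and 1.12 CPM in nmSC. The 3 gates did not overlap. Between mSC and nmSC the log2 fold change was 3.96 ± 0.23 (SE, edgeR adjusted p = 6.09e-11), a 15.6-fold difference. Aldoc kept a log2 fold change of 3.77 to 4.11 when each library was left out in turn. In nmSC its per-length level of 0.564 RPKM was under the 95th percentile of the receptor genes, 0.741 RPKM, while in mSC it reached 8.80 RPKM. Aldoa, the muscle and general aldolase, was the abundant form throughout, with 863, 961, 880 and 1358 CPM in mSC, 657, 603, 619 and 642 CPM in allSC and 377, 397, 436 and 370 CPM in nmSC. Its log2 fold change was 1.36 ± 0.14 (SE, edgeR adjusted p = 1.7e-07). Aldoc therefore supplied 2.5% ± 0.265 of the aldolase level per length in mSC, 1.73% ± 0.381 in allSC and 0.409% ± 0.117 in nmSC (SD, n = 4 each, mSC against nmSC exact permutation test, p = 0.0286, adjusted p = 0.0476). A second listed gene with the symbol Aldoa had 6 to 22 counts and was not used. Tpi1, triosephosphate isomerase, closed the upper part of the pathway at 423 ± 115 CPM in mSC and 247 ± 49.9 CPM in nmSC, which gave a log2 fold change of 0.78 ± 0.17 (edgeR adjusted p = 0.000944).

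**Figure D2:**
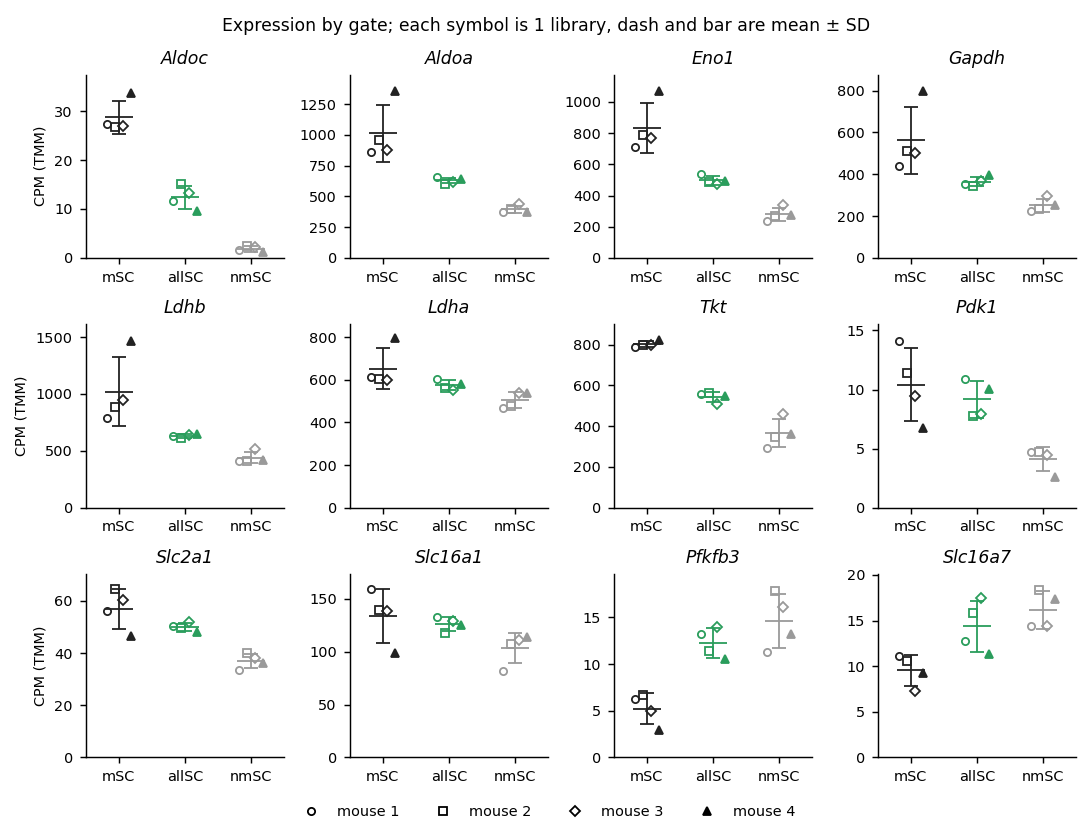
Expression of 12 of the genes in CPM after TMM scaling (y axes, each from 0) by gate (x axes), with 1 symbol per library, the shape giving the mouse, and the mean ± SD of 4 libraries as dash and bar. Aldoc, Aldoa, Eno1, Gapdh, Ldhb, Tkt and Pdk1 are higher and Pfkfb3 and Slc16a7 lower in mSC without overlap with nmSC, and the filled triangle of mSC mouse 4 is the top point for Aldoa, Eno1, Gapdh and Ldhb and the lowest mSC point for Pdk1 and Pfkfb3. Under scaling by library size alone, Ldha and Slc16a1 would be lower in mSC, at log2 fold changes of -0.20 and -0.17.

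Of the 6 enzymes of lower glycolysis, 5 were higher in mSC, and the remaining one, Eno2, did not pass. Eno1, the general enolase (chromosome 4, 150236721 to 150248879, plus strand), led them with 712, 788, 766 and 1067 CPM in mSC, 538, 489, 472 and 493 CPM in allSC and 238, 269, 339 and 275 CPM in nmSC. The 3 gates were separate, and mSC differed from nmSC by a log2 fold change of 1.57 ± 0.14 (SE, edgeR adjusted p = 3.33e-08). Gapdh, the dehydrogenase that yields NADH, was found at 440, 511, 501 and 798 CPM in mSC, 354, 346, 366 and 395 CPM in allSC and 225, 234, 296 and 253 CPM in nmSC. It also differed without overlap, with a log2 fold change of 1.16 ± 0.16 (SE, edgeR adjusted p = 8.45e-06). As a gene often taken for a stable reference, Gapdh was 2.23-fold higher in mSC than in nmSC.

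Pkm, pyruvate kinase of muscle and most other tissues, was the evenest of these genes within mSC, at 341, 351, 353 and 343 CPM, against 176, 207, 246 and 198 CPM in nmSC. Its log2 fold change was 0.75 ± 0.11 (edgeR adjusted p = 3.16e-05). Pgk1, the first enzyme of the chain to make ATP, was at 109 ± 16.8 CPM in mSC and 72.7 ± 13.2 CPM in nmSC, and Pgam1, phosphoglycerate mutase, at 70.3 ± 15.8 and 48.0 ± 1.15 CPM (mean ± SD, n = 4). Both passed, with log2 fold changes of 0.58 ± 0.14 (edgeR adjusted p = 0.00348) and 0.55 ± 0.14 (edgeR adjusted p = 0.00474). Eno2, the neuronal enolase, had 24.7, 26.5, 32.9 and 34.0 CPM in mSC and 20.3, 23.0, 27.1 and 20.6 CPM in nmSC, which overlapped, and a log2 fold change of 0.37 ± 0.15 (edgeR adjusted p = 0.0598). With mouse as a replicate block Eno2 passed (edgeR adjusted p = 0.0479), as it did without mSC replicate 1 (0.47, edgeR adjusted p = 0.0246) or nmSC replicate 3 (0.48, edgeR adjusted p = 0.0271). Its share of enolase per length was 3.93% ± 0.522 in mSC and 8.51% ± 0.481 in nmSC (SD, n = 4 each, exact permutation test, p = 0.0286, adjusted p = 0.0476). Several of these genes have near copies in the genome. Of the 100-base windows of the longest transcript, 67.0% for Pgk1, 59.0% for Eno1, 39.7% for Pgam1 and 18.2% for Gapdh were also found in another annotated gene, so reads could be split among copies and their levels are uncertain. Exons of 15 members, among them Aldoa, Gapdh and Tkt, overlap exons of another annotated gene, and the strand setting of the counting is not stated.

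Lactate dehydrogenase is a tetramer of the muscle-type subunit Ldha, which favours lactate production, and the heart-type subunit Ldhb. Ldhb (chromosome 6, 142490249 to 142507957, minus strand) was found at 793, 881, 944 and 1467 CPM in mSC, 627, 609, 641 and 647 CPM in allSC and 414, 413, 512 and 420 CPM in nmSC. The gates were separate, with mSC replicate 4 far above the other mSC libraries, and the log2 fold change was 1.21 ± 0.16 (SE, edgeR adjusted p = 4.65e-06). Ldha (chromosome 7, 46841475 to 46855627, plus strand) was closer, at 611, 601, 599 and 795 CPM in mSC, 603, 562, 551 and 579 CPM in allSC and 467, 478, 538 and 536 CPM in nmSC. Its log2 fold change was 0.37 ± 0.12 (SE, edgeR adjusted p = 0.0191), and without nmSC replicate 2 the call was lost (0.35, edgeR adjusted p = 0.0568). Relative to the median of all genes Ldha stood 0.52 to 0.53 higher (log2) over 4 scalings, a distance that scaling hardly changes by construction. With library size alone its own log2 fold change was -0.20, so its direction depends on the scaling.

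The share of Ldhb in the summed per-length level of the pair does not depend on the scaling of the libraries. It was 73.2%, 75.5%, 76.9% and 79.6% in mSC replicates 1 to 4, 68.7%, 69.5%, 71.0% and 70.2% in allSC and 65.1%, 64.6%, 66.7% and 62.3% in nmSC. The 3 gates did not overlap. Per length Ldhb was the larger part in each, which rests on the exon lengths used, 1570 bases for Ldhb and 3310 for Ldha. In CPM, without length, Ldha was the higher of the pair in nmSC, at means of 505 against 440 CPM. The difference between mSC and nmSC was 11.6 percentage points (means 76.3% ± 2.65 and 64.7% ± 1.83, SD, n = 4 each), with p = 0.0286 in the exact permutation test and 0.0476 adjusted over the 10 shares.

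**Figure D3:**
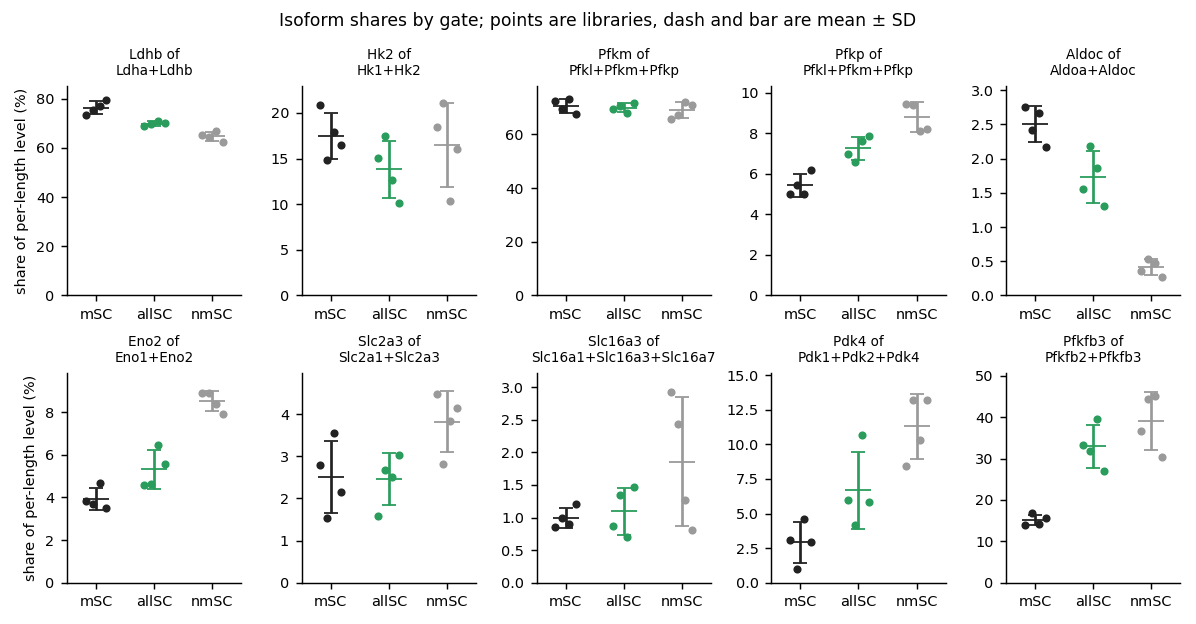
Share of 1 isoform in the summed per-length level of its family (y axes, percent, each from 0) by gate (x axes), with points for the 4 libraries and dash and bar for the mean ± SD. The shares of Ldhb and Aldoc are higher and those of Pfkp, Eno2, Pdk4 and Pfkfb3 lower in mSC than in nmSC without overlap, with allSC means in between, and the other 4 shares overlap.

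Monocarboxylate transporters carry lactate and pyruvate together with a proton. Slc16a1, which encodes MCT1, the main lactate transporter of glia (chromosome 3, 104638668 to 104658462, plus strand), was at 160, 139, 139 and 98.5 CPM in mSC, 133, 117, 129 and 125 CPM in allSC and 82.3, 107, 111 and 114 CPM in nmSC. It was higher in mSC in 3 of 4 mice, the exception being mouse 4. The log2 fold change was 0.37 ± 0.15 (SE, edgeR adjusted p = 0.0473), just inside the threshold. With the replicate block the adjusted p was 0.0791 (edgeR), and the call was also lost in 8 of the 12 fits that left out 1 library, those without replicates 1, 2 or 3 of mSC, replicates 1 or 2 of nmSC, or replicates 1, 2 or 3 of allSC, with adjusted p of 0.0554 to 0.14 and log2 fold changes of 0.28 to 0.39.

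Slc16a7, which encodes MCT2, a transporter of high affinity known mainly from neurons, was lower in mSC. It was found at 11.1, 10.5, 7.30 and 9.24 CPM in mSC, 12.7, 15.8, 17.5 and 11.4 CPM in allSC and 14.4, 18.4, 14.4 and 17.4 CPM in nmSC. All mSC libraries lay under all others. The log2 fold change against nmSC was -0.76 ± 0.18 (SE, edgeR adjusted p = 0.00259), 1.69-fold lower. Slc16a3, the exporter MCT4 of strongly glycolytic cells, was near the limit of what these libraries resolve, at 1.70, 1.74, 1.55 and 1.5 CPM in mSC and 3.17, 3.41, 1.79 and 1.19 CPM in nmSC, for a log2 fold change of -0.53 ± 0.36 (edgeR adjusted p = 0.24). At 0.305 RPKM in mSC and 0.450 RPKM in nmSC it lay under the 95th percentile of the receptor genes in each gate. Its share of the transporter level did not pass the test (0.992% in mSC and 1.86% in nmSC, exact permutation test, p = 0.2, adjusted p = 0.25).

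Pyruvate dehydrogenase is switched off by 4 kinases, of which Pdk1, Pdk2 and Pdk4 are members here. Pdha1, the catalytic subunit they phosphorylate, was higher in mSC, at 308, 292, 302 and 242 CPM against 140, 152, 155 and 193 CPM in nmSC, for a log2 fold change of 0.84 ± 0.12 (edgeR adjusted p = 2.22e-05). Pdk2, the broadly expressed kinase, was the most abundant of the 3 at 69, 71.2, 77.1 and 72.0 CPM in mSC and 35.9, 34.3, 48.5 and 41.8 CPM in nmSC, and its log2 fold change was 0.85 ± 0.13 (edgeR adjusted p = 3.53e-05). Pdk1, a known target of hypoxia-inducible factor, had 14.1, 11.4, 9.48 and 6.74 CPM in mSC and 4.71, 4.68, 4.49 and 2.57 CPM in nmSC without overlap, for a log2 fold change of 1.36 ± 0.24 (edgeR adjusted p = 0.000167). Its nmSC level of 0.529 RPKM was under the 95th percentile of the receptor genes, 0.741 RPKM.

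Pdk4, the kinase raised by fasting and fatty acids (chromosome 6, 5483351 to 5496309, minus strand), went the other way. It was at 2.65, 0.870, 4.35 and 2.5 CPM in mSC, 4.37, 2.95, 7.48 and 4.73 CPM in allSC and 3.85, 6.13, 6.43 and 7.26 CPM in nmSC, lower in mSC in each of the 4 mice although the gates overlapped. On the log2 scale the fold change was -1.18 ± 0.36 (SE, edgeR adjusted p = 0.014). Pdk4 held 2.91% ± 1.47 of the summed per-length level of the 3 kinases in mSC, 6.67% ± 2.81 in allSC and 11.3% ± 2.37 in nmSC (SD, n = 4 each, mSC against nmSC exact permutation test, p = 0.0286, adjusted p = 0.0476). Pdk4 thus shifted in the opposite direction to Pdk1 and Pdk2. The share leaves out Pdk3, which is not a member. In CPM, Pdk3 was above Pdk2 in both gates, at means of 102 against 72.3 in mSC and 47.6 against 40.1 in nmSC.

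All 4 genes of the pentose phosphate branch were higher in mSC. Tkt, transketolase of the non-oxidative arm (chromosome 14, 30548359 to 30574720, plus strand), was at 787, 799, 799 and 823 CPM in mSC, 557, 565, 509 and 546 CPM in allSC and 293, 349, 459 and 362 CPM in nmSC. It varied little within mSC, mSC replicate 4 included, and the gates did not overlap, at a log2 fold change of 1.13 ± 0.13 (SE, edgeR adjusted p = 6.03e-07). Taldo1, transaldolase of the same arm, followed at 436, 540, 537 and 896 CPM in mSC and 287, 319, 376 and 295 CPM in nmSC, which gave a log2 fold change of 0.92 ± 0.17 (edgeR adjusted p = 0.000269). The oxidative arm, which makes NADPH, had smaller log2 fold changes, a difference that was not tested. Pgd, phosphogluconate dehydrogenase, had a log2 fold change of 0.58 ± 0.12 (edgeR adjusted p = 0.000873) and G6pdx, the entry enzyme glucose-6-phosphate dehydrogenase, one of 0.39 ± 0.13 (edgeR adjusted p = 0.019). G6pdx had 64.0, 60.4, 65.0 and 51.9 CPM in mSC and 42.7, 42.9, 53.1 and 45.3 CPM in nmSC, where nmSC replicate 3 overlapped mSC replicate 4. The G6pdx call was lost without nmSC replicate 2 (0.36, edgeR adjusted p = 0.0583) or mSC replicate 3 (0.37, edgeR adjusted p = 0.0538), and its own fold change turned to -0.16 with library size alone.

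Neither glycogen gene passed the test in edgeR, although both had an unadjusted p under 0.05 and DESeq2 called Pygb (adjusted p = 0.0366). Pygb, brain glycogen phosphorylase, was at 112, 99.5, 103 and 50.2 CPM in mSC and 48.8, 61.7, 88.9 and 62.5 CPM in nmSC, with mSC replicate 4 below 3 of the 4 nmSC libraries. Its log2 fold change was 0.48 ± 0.21 (edgeR adjusted p = 0.0734), and it passed without mSC replicate 4 (0.68, edgeR adjusted p = 0.00102) or nmSC replicate 3 (0.67, edgeR adjusted p = 0.0201). Gys1, glycogen synthase of muscle and most other tissues, was at 20.3, 18.1, 23.8 and 13.1 CPM in mSC and 20.3, 28.7, 27.4 and 23.0 CPM in nmSC, which gave a log2 fold change of -0.39 ± 0.17 (edgeR adjusted p = 0.075). It passed as lower in mSC without nmSC replicate 1 (-0.47, edgeR adjusted p = 0.049) or mSC replicate 3 (-0.51, edgeR adjusted p = 0.0343), under the stricter filter (-0.43, edgeR adjusted p = 0.0498), with library size alone (-0.94, edgeR adjusted p = 0.000412) and without the 50 top genes in the library sizes (-0.75, edgeR adjusted p = 0.00256).

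The gate of all Schwann cells mostly held intermediate levels. Its mean lay between the mSC and nmSC means in 34 of the 36 genes, the exceptions being Pfkp and Slc2a3. Against allSC, 10 genes were higher in mSC (Gpi1, Aldoa, Aldoc, Tpi1, Gapdh, Eno1, Pkm, Ldhb, Tkt and Taldo1) and 2 lower (Pfkfb3 and Slc16a7), where 17.6% of all genes tested were called, 8.76% higher and 8.8% lower. Against allSC, 12 genes were lower in nmSC (Slc2a1, Hk1, Aldoa, Aldoc, Gapdh, Eno1, Pkm, Ldhb, Pdk1, Pdk2, Pdha1 and Tkt) and none was higher in edgeR, at an unadjusted p under 0.05 or in DESeq2, where 10.4% of all genes were called, 7.54% lower and 2.83% higher. Both comparisons share the allSC libraries. Aldoc was 2.30-fold higher in mSC than in allSC (log2 fold change 1.20 ± 0.19, edgeR adjusted p = 0.000145) and fell by 2.76 ± 0.23 on the log2 scale in nmSC (edgeR adjusted p = 5.34e-08). Pfkfb3 was the opposite case, with a log2 fold change of -1.21 ± 0.22 in mSC (edgeR adjusted p = 0.000589) and 0.25 ± 0.21 in nmSC (edgeR adjusted p = 0.57). The count of 12 lower genes in nmSC ran from 6 to 13 when single libraries were left out, at 6 without nmSC replicate 2 or allSC replicate 4, and at 7 without allSC replicates 1, 2 or 3, nmSC replicates 1 or 4, or mSC replicate 3. Of all genes, 5.33% to 9.38% were called lower in nmSC in the fits that left out 1 library. The count of 2 lower genes in mSC went to 1 without allSC replicates 2 or 3 or mSC replicate 2. In those fits, 6.27% to 6.55% of all genes were called lower.

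**Figure D4:**
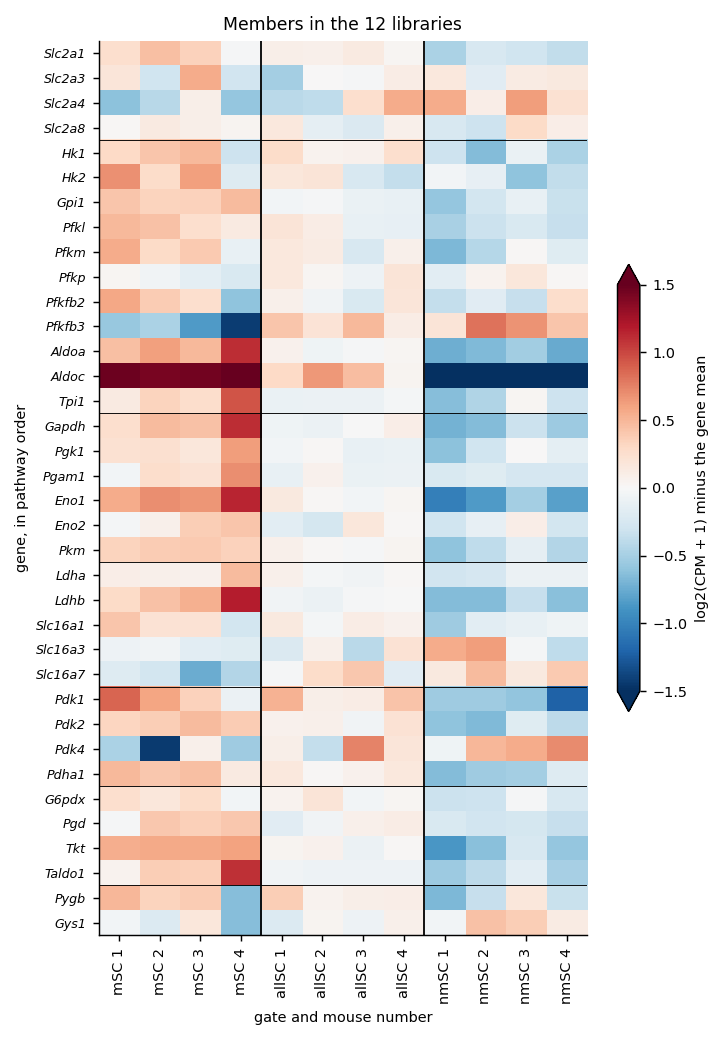
Expression of the 36 genes (y axis, pathway order) in the 12 libraries (x axis, gate and mouse number), as log2(CPM + 1) minus the gene's mean over the libraries, with colours cut at -1.5 and 1.5. The 4 mSC columns are red for most enzymes and blue for Pfkfb3, the allSC columns are pale, and mSC 4 differs from mSC 1 to 3 by deeper red for Tpi1, Gapdh, Ldhb and Taldo1 and by blue for Pfkfb2, Pygb and Gys1.

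Among the mSC libraries, replicate 4 departed most from the others, with an SD of its log2 ratio to them of 0.52 over the 36 genes, against 0.26 to 0.30 for replicates 1 to 3. Of the 36 genes it held the highest of the 4 mSC values in 13 and the lowest in 15. The log2 ratio of that library to the mean of the other mSC libraries was 0.83 for Taldo1, 0.75 for Ldhb, 0.72 for Gapdh and 0.69 for Tpi1, and -1.05 for Pygb, -1.01 for Pfkfb2 and -0.80 for Pfkfb3. Sorted by the longest annotated transcript, the median ratio was 0.59 for the 7 genes under 2000 bases and -0.64 for the 10 genes over 4000 bases. Spearman's rho between ratio and length was -0.75 over the 36 genes, and -0.56 over 9156 genes of at least 10 CPM, given as a description since the genes share the library. The other mSC libraries were each set against the mean of the remaining 3, which included replicate 4. Their rho was 0.75 over the 36 genes and 0.58 over the 9156 genes in replicate 1, 0.52 and 0.25 in replicate 2, and 0.34 and 0.28 in replicate 3. With replicate 4 in the reference, a positive rho arises in part by construction. These values therefore do not describe those libraries alone. With mSC replicate 4 left out, 26 members were higher and 4 lower in mSC than in nmSC, against 20.3% and 19.6% of all genes tested. Over the 36 genes, the mSC-nmSC log2 fold change itself had a rho of -0.46 with transcript length. Over 9399 genes of at least 10 CPM the log2 ratio of mSC to nmSC had one of -0.18, and of -0.043 without mSC replicate 4. The part of transcript length in the differences between gates was not tested.

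**Figure D5:**
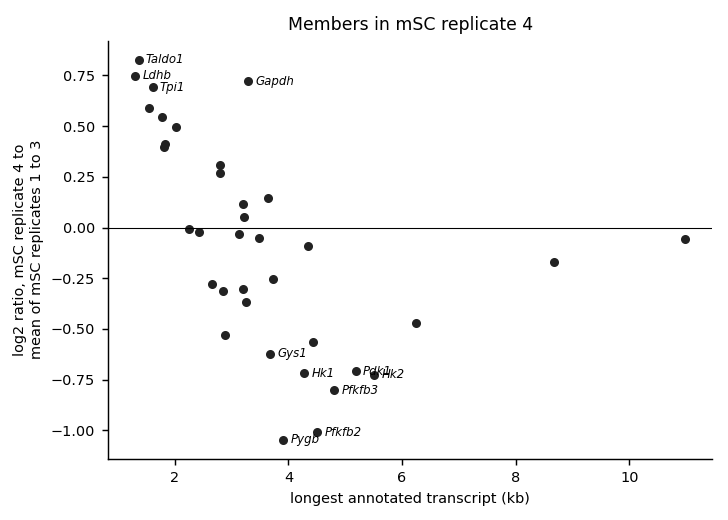
Log2 ratio of mSC replicate 4 to the mean of mSC replicates 1 to 3 (y axis) against the length of the longest annotated transcript in kilobases (x axis) for the 36 genes, 1 point each, with genes beyond 0.6 in either direction named. Short transcripts such as Taldo1 at 0.83 lie above 0 and Pygb at -1.05 lies lowest.

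Outside the 36 genes, a wider list held 84 glucose metabolism genes. Of the 82 tested, 24 were higher and 17 lower in mSC than in nmSC, where 20.4% and 20.2% of all genes tested were called, with a median log2 fold change of 0.079 against -0.16 over all genes. Among those with at least 10 CPM, the largest rises were in Slc2a6, a lysosomal sugar transporter, at 3.51 ± 0.24 (edgeR adjusted p = 6.71e-10), in Pgm1, a phosphoglucomutase, at 2.47 ± 0.19 (edgeR adjusted p = 2.41e-09), and in Gpd1, which links glycolysis to glycerol lipid synthesis, at 1.67 ± 0.13 (edgeR adjusted p = 3.53e-09). Next came Pdp2, a phosphatase that reactivates pyruvate dehydrogenase (1.55), Got1 of the malate-aspartate shuttle (1.29), Mpc1 of the mitochondrial pyruvate carrier (1.27), Gpd2 (1.11) and Pdk3 (1.10, log2 fold changes, all past the edgeR threshold). Pdk3, the fourth kinase of pyruvate dehydrogenase, thus rose beside Pdk1 and Pdk2. Lower in mSC were Pck2, mitochondrial phosphoenolpyruvate carboxykinase, at -2.82 ± 0.22 (edgeR adjusted p = 4.53e-09), the transcription factor Myc at -2.53 ± 0.21 (edgeR adjusted p = 1.11e-08), and Mlxip, a glucose-sensing transcription factor, at -1.81 ± 0.14 (edgeR adjusted p = 2.74e-09). Txnip, which restrains glucose uptake, fell by 1.57 ± 0.13 on the log2 scale (edgeR adjusted p = 6.53e-09), Phka1 by 0.93 and Bpgm by 0.48.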

How the data were processed

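Libraries were prepared from sorted Schwann cells with the Smart-Seq2 protocol. The raw counts per gene were made by the authors, who trimmed adapters, aligned reads with STAR 2.6.1c (per the labels) and counted them with featureCounts. The submitters' processing notes name GRCm38.p5, while the study's methods name a human build for these mouse reads. The strand and multi-mapping settings of the counting are not given in the sources used here.

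From the deposited counts, edgeR 4.0.16 (R 4.3.3) was fitted to all 12 libraries in 1 model with a coefficient per gate, after TMM scaling and filterByExpr by gate, and quasi-likelihood p-values were adjusted by Benjamini-Hochberg over all 18597 genes tested. CPM used TMM library sizes, and RPKM divided CPM by the summed exon length. Isoform shares were compared by two-sided exact permutation tests that ignored the pairing by mouse. Identifiers were matched to GENCODE M21 (25664 of 25700). The members and lists were chosen with earlier results of these data known. All members were named, and from the wider list the genes called with at least 10 CPM, up to 8 in each direction. The subject label ties same-numbered libraries to 1 mouse, and correlations of their deviations from gate means (mSC against nmSC) were -0.23, 0.059, 0.15 and -0.13. Alternatives were DESeq2 1.42.0, other scalings and filters, the gates compared alone, the replicate block and leaving out each library. The scripts were tested on simulated data. Totals of 8180927 to 16918122 counts set the precision, and p-values reflect the spread between mice.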

Additional observations from a re-analysis of the deposited data

Results flagged for a closer look

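In 138 groups of 4 libraries (36 genes and 10 shares in 3 gates), 10 held a library whose gap to the nearest other exceeded the 95% critical value of Dixon's test, where chance gives about 1 in 20 groups. Of these, 3 were in mSC replicate 4: Aldoc with 33.7 CPM (the remaining mSC libraries had 26.7 to 27.5 CPM), Pgk1 with 134 CPM (97.3 to 102 CPM), and Ldha with 795 CPM (599 to 611 CPM). Pgd was low in mSC replicate 1, at 134 CPM against 174 to 180 CPM. In nmSC, Ldhb was high in replicate 3 at 512 CPM against 413 to 420 CPM, Pdk1 was low in replicate 4 at 2.57 CPM against 4.49 to 4.71 CPM, and Slc2a3 was low in replicate 2 at 2.38 CPM against 3.14 to 3.27 CPM. In allSC, Pgam1 was at 58.8 CPM in replicate 2 against 52.1 to 53.0 CPM, Taldo1 at 405 CPM in replicate 1 against 396 to 397 CPM, and Pygb at 102 CPM in replicate 1 against 81.7 to 84.6 CPM. No cause was tested for any of them.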

How the results depend on the processing

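Scaling moved the results most. With library size alone, 8 members were higher and 8 lower in mSC than in nmSC (7.79% and 55.9% of all genes). Against allSC, 4 were higher and 4 lower in mSC (2.24% and 21.3% of all genes). In nmSC, 4 were lower than in allSC (4.00% of all genes). With the 50 most abundant genes left out of the library sizes, the counts in mSC against nmSC were 14 higher and 6 lower. Of all genes, 11.1% and 41.2% were called so. Against allSC, 6 were higher and 4 lower in mSC (3.46% and 14.7% of all genes), and 7 were lower in nmSC (5.07%). Only Aldoa, Aldoc, Gapdh, Eno1, Ldhb, Pdk1, Pdk2 and Tkt stayed called higher in mSC than in nmSC with library size alone. Without the 50 top genes Gpi1, Pfkl, Tpi1, Pkm, Pdha1 and Taldo1 did so as well. DESeq2 called 16 members higher in mSC than in allSC, and 14.5% of all genes. Sign changed with library size alone for Slc2a3 (-0.52), Slc2a8 (-0.46), Pfkfb2 (-0.18), Pgam1 (-0.032), Eno2 (-0.19), Ldha (-0.20), Slc16a1 (-0.17), G6pdx (-0.16) and Pygb (-0.057), and without the 50 top genes for Slc2a3 (-0.32), Slc2a8 (-0.26) and Ldha (-0.000146). Slc2a3 also turned to -0.0037 under the stricter filter and ran from -0.23 to 0.19 with single libraries left out. Leaving out single libraries gave 21 to 26 members higher and 3 to 5 lower in mSC than in nmSC, 7 to 13 higher and 1 to 2 lower in mSC than in allSC, and 6 to 13 lower in nmSC than in allSC. With mouse as a replicate block, 24 members were higher and 4 lower in mSC than in nmSC (19.5% and 19.1% of all genes). No call changed there except those of Slc16a1 and Eno2. Isoform shares without a library or under pairing were not tested. Under pairing, an exact permutation test of 4 mice could not reach p under 0.05. Depth limits the members of a few CPM, where the lowest count was 10, and counting intervals are not the main error.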
